A study of Mus musculus with 3 samples.

Results

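The TRIM genes form a large family of ubiquitin ligases. They were taken here as all genes whose symbol is Trim followed by a number, with an optional letter or suffix, and which have at least 1 transcript annotated as protein-coding. The rule found 68 genes of 55536 annotated genes, or of 22028 protein-coding ones, and no matching symbol lacked a protein-coding transcript. All 68 were counted in the deposited tables. The libraries are total RNA sequencing, with ribosomal RNA depleted, of macrophages grown from mouse bone marrow, from which the cytosol was taken as a separate fraction. The series has 1 group of 3 libraries from C57BL/6J cells, each made from 1 µg of RNA. Lipid A, the membrane anchor of bacterial endotoxin and a ligand of TLR4, had been given at 100 ng/ml for 12 h, removed for 12 h, and given again at 100 ng/ml for 20 min. By the labels these are biological replicates 1, 2 and 3 with 1 donor identifier between them, so an SD below is a spread between these libraries, part of which may be technical. No unstimulated cells and no nuclear fraction were analysed here, so every value is a level and not a response. In such bulk RNA, fewer cells with a transcript and less of it per cell cannot be told apart.

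A TRIM protein is built from a RING domain, which recruits a ubiquitin-conjugating enzyme, followed by B-box zinc-binding domains, a coiled coil through which the proteins pair, and a C-terminal domain that in most members selects the target. Many members are induced by interferon and act in innate immunity. TRIM21 binds antibody-coated particles in the cytosol, TRIM25 ubiquitinates the RNA sensor RIG-I, and mouse TRIM30a restrains Toll-like receptor signalling by sending TAB2 and TAB3 for degradation. Others work on chromatin, on microtubules or in muscle.

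The libraries held 32055937, 43616634 and 47864978 expected counts on annotated genes in replicates 1, 2 and 3, of which the TRIM genes took 0.300%, 0.266% and 0.277%. Levels are in TPM, which divides reads by transcript length and scales each library to a fixed sum. All 7 macrophage markers reached 1 TPM in every library and summed to 5282, 4535 and 4719 TPM in replicates 1, 2 and 3. No T-cell or B-cell marker did. Of the neutrophil markers S100a8 did, at 3.78, 3.90 and 5.34 TPM, while Ly6g was listed at 0, and of the stromal and endothelial markers Pecam1 was highest, at 1.12, 0.51 and 1.32 TPM in replicates 1, 2 and 3. The defining muscle genes Acta1, Myh6 and Myod1 were listed at 0 in every library. Protein-coding genes took 32.7%, 27.4% and 27.8% of TPM in replicates 1, 2 and 3. TPM has a fixed sum, so the larger coding share of replicate 1 goes with higher deposited TPM of coding genes there. Differences between libraries are therefore also given on TPM scaled to protein-coding genes, here called the coding scale. The factors of this scaling lay at -0.17, 0.09 and 0.07 log2 units from their mean in replicates 1, 2 and 3.

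Several of the most abundant TRIM genes carried a match to the same short pattern in a promoter. The stretches are shown because 6 of the genes with a match are neighbours on chromosome 7. The pattern is the interferon-stimulated response element (ISRE), searched as GAAANNGAAA on both strands of RefSeq promoters (build GRCm38.p6, the same as mm10). These run from 250 bases before to 50 bases after each start, 300 bases in all. The table had 53 of the 68 TRIM genes. Of the most abundant ones, Trim14 and Trim35 were not in it, and Trim25 and Trim30c were in it without a match. An ISRE was found in 9 of these 53, namely Trim2, Trim5, Trim12a, Trim12c, Trim21, Trim26, Trim30a, Trim30d and Trim34a, against 3.99% of all 27025 genes in the table. Of the TRIM genes at a mean of 1 TPM or more, 8 of 23 had one, against 4.30% of all genes at that level. The neighbours on chromosome 7 share sequence through duplication, so these are not independent matches. In the 30-base windows below, written in the direction of transcription, capitals mark the ISRE or its reverse complement, including overlapping matches.
Trim5 (chr7:104288136-104288165, minus strand): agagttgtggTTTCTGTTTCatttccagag
Trim12a (chr7:104315466-104315495, minus strand): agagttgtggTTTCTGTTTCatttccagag
Trim12c (chr7:104353359-104353388, minus strand): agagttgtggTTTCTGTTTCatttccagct
Trim34a (chr7:104244457-104244486, plus strand): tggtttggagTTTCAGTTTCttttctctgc
Trim21 (chr7:102565447-102565476, minus strand): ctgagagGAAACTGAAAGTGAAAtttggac
Trim26 (chr17:36836979-36837008, plus strand): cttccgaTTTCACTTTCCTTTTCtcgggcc

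The windows of Trim5 and Trim12a were identical, and that of Trim12c differed from them only near its end. The annotated starts sit differently around the shared stretch. The ISRE began 49 bases before the start in Trim5 and 29 bases before it in Trim12c, and 10 bases after it in Trim12a. In Trim34a it also began 10 bases after the start, in Trim21 the overlapping pair began 13 and 19 bases after it, and in Trim26 the pair began 160 and 154 bases before it. Over the whole promoter, with gaps counted as differences, Trim5 and Trim12c were 82.8% identical, Trim12a and Trim12c 72.9%, and Trim5 and Trim12a 67.1%. The gaps numbered 40, 80 and 118 for these pairs. Among the aligned bases alone, 265 of 280, 248 of 260 and 241 of 241 were identical, so the ranking followed the gaps. The gene totals of the 3 differed, with Trim5 the lowest.

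The pair with the highest levels of the family, Trim30a and Trim30d, had promoters that were 90.8% identical with gaps counted as differences. The 100 bases before their starts are shown because almost the same stretch, including the ISRE, stands before both genes at a slightly shifted place. The ISRE began 36 bases before the start in Trim30a and 41 bases before it in Trim30d. RefSeq also lists a second start of Trim30a within the gene, where an ISRE began 2 bases after the start.
Trim30a (chr7:104465194-104465293, minus strand): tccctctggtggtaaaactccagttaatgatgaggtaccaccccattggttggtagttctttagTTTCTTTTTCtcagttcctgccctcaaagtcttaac
Trim30d (chr7:104507850-104507949, minus strand): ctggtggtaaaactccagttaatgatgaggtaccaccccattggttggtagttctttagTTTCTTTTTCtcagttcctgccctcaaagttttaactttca

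Another interferon-related motif, the gamma-activated site (GAS, searched as TTCNNNGAA on both strands), was present in 6 of the 53 TRIM genes, against 9.55% of all genes. Trim30c was the 1 of these at a mean of 1 TPM or more. The kappaB motif, bound by NF-kB, was found in Trim7, Trim13 and Trim28, against 6.55% of all genes. A match is a run of letters and says nothing of binding in these cells.

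Of the 68 TRIM genes, 31 reached 1 TPM in every library, against 41.3% of all protein-coding genes, so the family as a whole was not set apart by how many of its genes were detected. Their range was wide. A mean of 10 TPM or more was reached by 15 genes, 16 lay between 1 and 10 TPM, 10 between 0.1 and 1 TPM and 14 above 0 but below 0.1 TPM. The other 13 had 0 counts in every library. For these a count of 3, taken as the limit that 0 allows, corresponds to between 0.00396 and 0.0675 TPM, and it covers counting error only. The median level was 0.785 ± 0.0721 TPM for the 68 genes and 0.15 ± 0.02 TPM for all protein-coding genes (SD, n = 3).

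**Figure D1:**
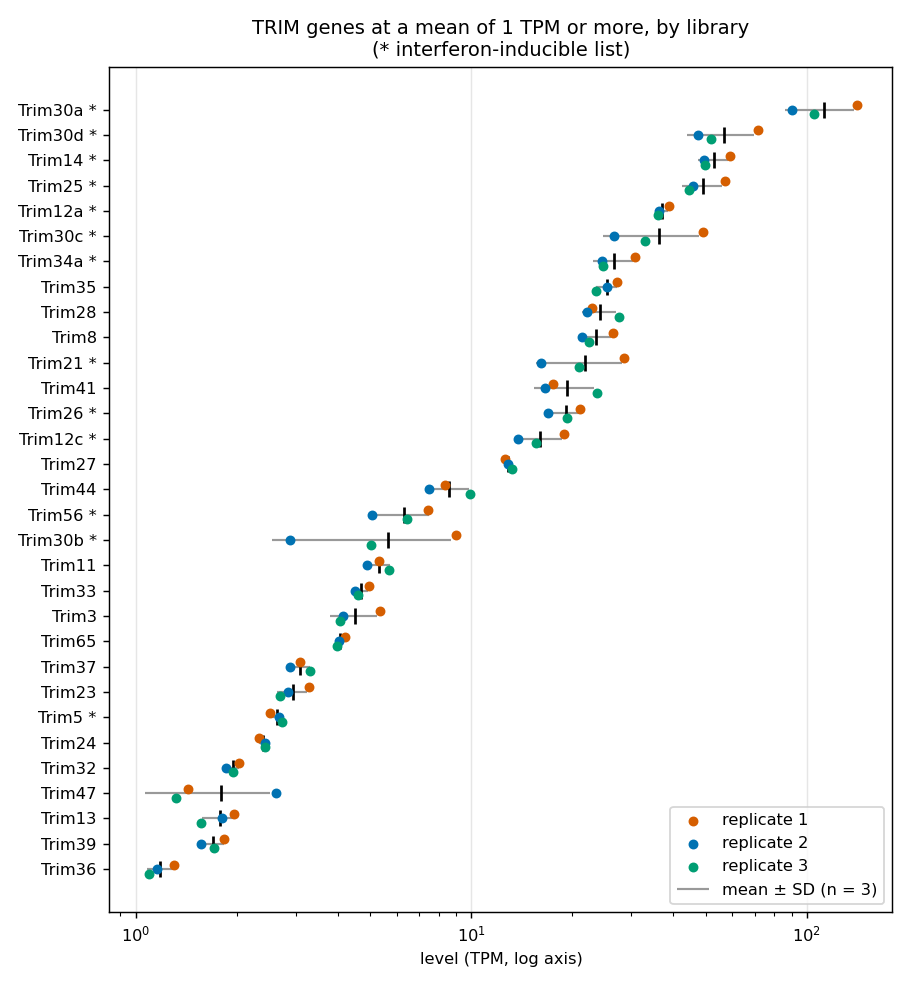
Level of each of the 31 TRIM genes at a mean of 1 TPM or more, in TPM on a log axis, with genes ordered by mean from the top. Points are the 3 libraries, the tick is the mean and the grey line the mean ± SD; the genes run from Trim30a, at 90.5 to 141 TPM, to Trim36, at 1.10 to 1.30 TPM, and Trim30b and Trim47 have the widest spread.

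The interferon-inducible members made up most of the upper end. A list of 15 TRIM genes known from other work to be induced by interferon had 13 at 1 TPM or more in every library, and its median level was 28.6, 16.9 and 20.97 TPM in replicates 1, 2 and 3. The other 53 had 18 such genes and a median level of 0.19, 0.08 and 0.08 TPM. The list held the 7 highest TRIM genes, and the first outside it was Trim35. The list was chosen with earlier results of these data known, so its high levels are a description and not independent support. The members of the list below 1 TPM in some library were Trim34b, at 0.07, 0.05 and 0.07 TPM, and Trim6, at 1.02, 0.53 and 1.13 TPM in replicates 1, 2 and 3.

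Of the 68 genes, 16 lie on chromosome 7, and 10 of these form 1 cluster of 289 kb (mm10, 104218793 to 104507849). This cluster alone held 52.3%, 46.8% and 47.8% of the summed TPM of the family in replicates 1, 2 and 3, or 48.9% ± 2.94 (SD, n = 3). In total the family summed to 693, 525 and 575 TPM in these libraries. 8 of the 10 cluster genes reached 1 TPM in every library.

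Trim30a (ENSMUSG00000030921.17, 104409025 to 104465193, minus strand) was the highest TRIM gene, at 141, 90.5 and 105 TPM in replicates 1, 2 and 3, or 112 ± 25.9 TPM (SD, n = 3). Trim30d, its neighbour, stood at 71.4, 47.4 and 51.6 TPM. Trim30a exceeded Trim30d by 0.98 ± 0.05 log2 units in level, in each of the 3 libraries, and their ranges did not overlap. Replicate 1 was the highest library for both.

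The other Trim30 genes were lower and more uneven. Trim30c stood at 48.9, 26.7 and 32.9 TPM and Trim30b at 8.98, 2.89 and 5.04 TPM in replicates 1, 2 and 3. Replicate 2 was the lowest library and replicate 1 the highest for all 4 Trim30 genes.

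The rodent relatives of primate TRIM5, which blocks retroviral capsids, differed widely among themselves in level. Trim12a stood at 38.9, 36.3 and 35.9 TPM, Trim12c at 18.9, 13.8 and 15.6 TPM, and Trim5 at 2.52, 2.68 and 2.74 TPM in replicates 1, 2 and 3. The 3 genes kept this order in every library and their ranges did not overlap. For Trim12a and Trim12c this order rested on gene totals. The main coding transcripts, Trim12a-203 (18.7, 15.2 and 14.1 TPM) and Trim12c-201 (18.9, 13.8 and 15.6 TPM), had overlapping ranges and no fixed order. Of Trim34a and Trim34b, a pair of near copies, the first stood at 30.8, 24.5 and 24.7 TPM and the second under 0.1 TPM in every library. Trim6, at the edge of the cluster, was lowest in replicate 2.

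**Figure D2:**
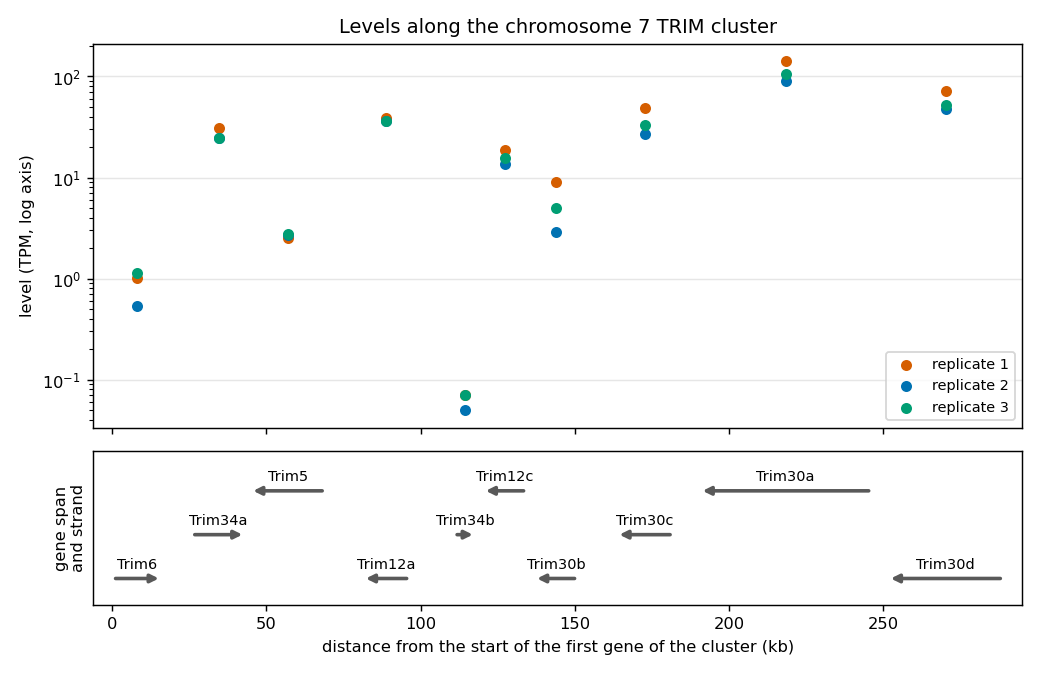
Upper panel, level in TPM (log axis) of the 10 TRIM genes of the chromosome 7 cluster, each at the middle of its span, with 1 point per library. Lower panel, the span and strand of each gene against the distance in kb from the start of the first; levels run from Trim34b, at 0.05 to 0.07 TPM, to Trim30a, at 90.5 to 141 TPM, and neighbours can lie at opposite ends of this range.

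Near copies limit how far reads can be assigned. Of the 31-base words in the transcripts of Trim34a, 31.5% occurred in no other annotated gene on either strand, and 48.7% were shared with Trim34b. For Trim5 the unique share was 46.8%, with 37.9% shared with Trim12c, and for Trim12c it was 51.9%. It was 88.1% for Trim30a, 88.1% for Trim30d, 94.3% for Trim30c and 95.4% for Trim30b. The division of reads between Trim34a and Trim34b, and between Trim5 and Trim12c, is therefore the less certain. A second quantification of the same reads, on the coding scale, gave a Trim34a level that the first exceeded by ratios of 1.02, 1.02 and 1.01 in replicates 1, 2 and 3, and for Trim5 these ratios were 1.00, 1.04 and 1.04. For Trim34b they were 0.353, 0.596 and 0.474, on only 5.58, 6.68 and 9.16 counts in the first quantification. Its exact level thus depended on the quantification. As deposited, the second gave 0.099, 0.047 and 0.065 TPM in replicates 1, 2 and 3, so it was low in both.

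Outside the cluster, genes that act with RNA sensors were highest. Trim14 (chromosome 4), which has no RING domain and acts as an adaptor in signalling from RNA sensors at mitochondria, stood at 59.1, 49.3 and 49.9 TPM in replicates 1, 2 and 3. Trim25 (chromosome 11), the RIG-I ligase, stood at 56.9, 45.8 and 44.6 TPM. Trim14 was above Trim25 in all 3 libraries, by 0.11 ± 0.05 log2 units in level, although their ranges overlapped. This order rested on gene totals of the first quantification. The main coding transcripts, Trim14-201 (41.5, 36.5 and 45.1 TPM) and Trim25-203 (56.0, 45.7 and 44.5 TPM), had no fixed order. In the second quantification Trim14 was marginally below Trim25 in replicate 1 (33.6 against 33.8 TPM) and above it in replicates 2 and 3. Trim14 could not be ordered against Trim30d, which exceeded it in 2 of 3 libraries.

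Trim21 (chromosome 7, outside the cluster), the cytosolic antibody receptor, stood at 28.6, 16.1 and 20.97 TPM. Trim26, described as a regulator of the transcription factor IRF3, stood at 21.1, 16.9 and 19.3 TPM. Trim56, known to act with the DNA-sensing adaptor STING, stood at 7.42, 5.05 and 6.45 TPM. Replicate 2 was the lowest library for these 3 genes. Trim65, a ligase for the RNA sensor MDA5, was steadier at 4.21, 4.03 and 3.99 TPM. In the list of antiviral and antibody-binding members 9 of 10 reached 1 TPM in every library, Trim38 being the exception at 0, 0.02 and 0.01 TPM in replicates 1, 2 and 3. Its median was 9.61 ± 0.578 TPM (SD, n = 3).

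Several members outside the interferon list had levels above 10 TPM. Trim35, also called Hls5, stood at 27.3, 25.4 and 23.6 TPM. Trim8, which promotes NF-kB signalling, stood at 26.5, 21.4 and 22.5 TPM. Trim41 stood at 17.5, 16.6 and 23.7 TPM, with replicate 3 apart from the other 2, and Trim27 at 12.6, 12.8 and 13.3 TPM, with almost no spread. Trim44, a member without a RING, lay below 10 TPM, at 8.35, 7.47 and 9.94 TPM. In the order of means from Trim34a down to Trim26 (Trim34a, Trim35, Trim28, Trim8, Trim21, Trim41, Trim26), each gene and the next could not be ordered, because the gap between their levels was smaller than its spread over the libraries.

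The chromatin members of the TIF1 group bind histones or repressor complexes. Trim28, also called KAP1, is the corepressor that zinc-finger proteins use to silence retroelements, and it stood at 23.0, 22.2 and 27.5 TPM in replicates 1, 2 and 3. Trim33, which acts on SMAD4, stood at 4.95, 4.50 and 4.61 TPM, and Trim24 at 2.33, 2.43 and 2.43 TPM. Trim66 was the member of the group below 1 TPM, at 0.04, 0.01 and 0.01 TPM. All 8 genes listed as partners of TRIM28 reached 1 TPM in every library, with Chd4 (29.2 ± 4.66 TPM) and Cbx3 (17.4 ± 1.37 TPM) highest and Cbx5 lowest (5.65 ± 0.674 TPM; SD, n = 3).

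Other domain classes were sparse. Of the 5 members listed with NHL repeats or a filamin domain, Trim3 (5.34, 4.14 and 4.07 TPM) and Trim32 (2.03, 1.86 and 1.95 TPM) reached 1 TPM in every library. Of the 8 with a COS box, which attaches proteins to microtubules, Trim36 was the 1 to do so, at 1.30, 1.16 and 1.10 TPM. In the class with a transmembrane, MATH or ARF domain 3 of 4 did so. These were Trim37 (3.09, 2.89 and 3.32 TPM), Trim23 (3.29, 2.84 and 2.70 TPM) and Trim13 (1.97, 1.81 and 1.57 TPM), which is anchored in the endoplasmic reticulum. The SPRY class, the largest, had 19 of 38 at 1 TPM or more, among them Trim11 (5.33, 4.88 and 5.70 TPM) and Trim39 (1.83, 1.57 and 1.71 TPM).

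None of the 4 muscle members reached 1 TPM. Trim54, Trim63 and Trim72 had 0 counts in all 3 libraries, and Trim55 was listed at 0.01, 0 and 0 TPM in replicates 1, 2 and 3. The limits that 0 counts allow for the first 3 were at most 0.0505, 0.0445 and 0.0350 TPM.

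Genes that share the TRIM architecture under other names were also measured. Pml, the organiser of nuclear bodies, stood at 38.6, 25.9 and 32.2 TPM in replicates 1, 2 and 3, and Mid1, a microtubule-binding ligase, at 27.3, 10.8 and 16.7 TPM. Mefv, which encodes the inflammasome protein pyrin, stood at 4.86, 2.15 and 3.48 TPM, and Mid2 had at most 0.01 TPM. In the 3 expressed ones replicate 1 was highest and replicate 2 lowest.

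The partners TRIM ligases need were present throughout. All 9 listed ubiquitin-conjugating enzymes reached 1 TPM in every library, with Ube2d3 (126 ± 16.7 TPM) and Ube2d2a (52.2 ± 4.85 TPM) highest and Ube2d1 lowest (6.87 ± 1.31 TPM; SD, n = 3). All 12 listed partners of the RIG-I pathway did so too. The highest were Irf7 (729 ± 182 TPM) and Ddx58, which encodes RIG-I (101.4 ± 24.7 TPM), and the lowest was Tab3 (2.86 ± 0.605 TPM; SD, n = 3), one of the TRIM30a targets.

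Between libraries, most interferon-inducible TRIM genes were highest in replicate 1. On deposited TPM 22 of the 31 expressed TRIM genes were highest in replicate 1, against 55.3% of all genes at 1 TPM or more. On the coding scale the count was 11 of 31, against 21.3%. These 11 were 9 of the 13 interferon-list genes and 2 of the 18 others. Replicate 2 was lowest on the coding scale in 8 of those 13 and in 1 of those 18, against 27.7% of all genes. Replicate 1 was lowest in 2 of the 13 and 13 of the 18, against 50.6% of all genes. With 1 group these counts carry no test.

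All 20 listed interferon-stimulated genes were highest in replicate 1 on deposited TPM, and 19 were on the coding scale. The highest were Ifit2, at 1203, 637 and 969 TPM, and Rsad2, at 1232, 499 and 742 TPM in replicates 1, 2 and 3, and the lowest was Oas2, at 26.3, 13.0 and 16.9 TPM. Their median ratio of replicate 1 over replicate 2 was 1.93 on deposited TPM, and that of the 13 TRIM genes was 1.37. For all genes at a mean of 1 TPM or more it was 1.12. On the coding scale these ratios were 1.61, 1.15 and 0.934. Malat1, an RNA known to reside in the nucleus, stood at 612, 156 and 637 TPM in these libraries. It was thus also lowest in replicate 2, but high in replicate 3. The part of either in the TRIM differences was not tested.

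A ratio of 1.5 or more between the highest and lowest library, on deposited TPM, was reached by 6 of the 31 expressed TRIM genes, against 21.6% of all genes at that level. They were Trim30b (3.11-fold), Trim47 (1.99-fold), Trim30c (1.83-fold), Trim21 (1.78-fold), Trim30a (1.56-fold) and Trim30d (1.51-fold). Without replicate 1 there were 2, and without replicate 2 there was 1, and the share of all genes was not computed for these. On the coding scale 4 of the 31 passed, against 20.7% of all genes. These were Trim30b (2.60-fold), Trim47 (2.20-fold), Trim41 (1.60-fold) and Trim30c (1.53-fold), and Trim21 fell just short at 1.49-fold. In Trim41 a transcript of 429 bases, Trim41-202, stood at 2.96, 3.81 and 7.28 deposited TPM on 2.26% of the gene's counts. The main transcript Trim41-201, with 96.5% of counts, stood at 11.6, 11.6 and 14.0 TPM. On counts normalized by edgeR, Trim41 spanned 1.31-fold and Trim21 1.52-fold.

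**Figure D3:**
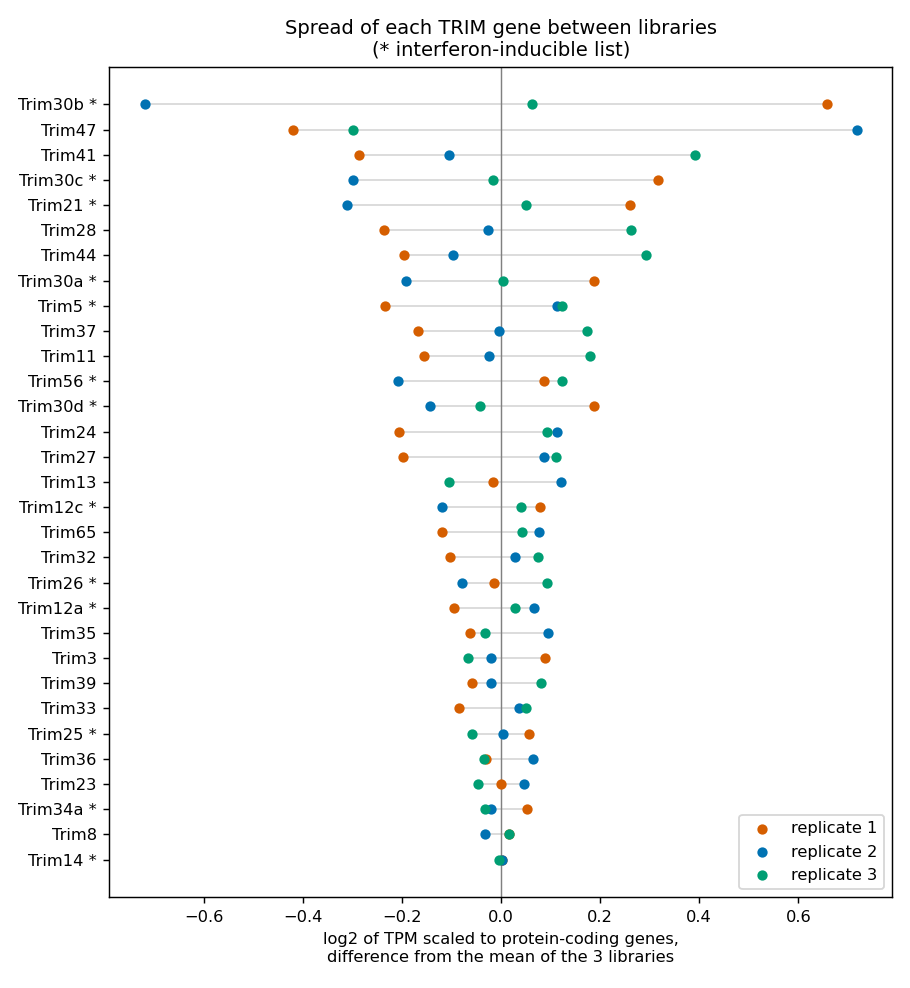
Spread of the 31 expressed TRIM genes between libraries, as the difference in log2 units of each library from the mean of the 3, on TPM scaled to protein-coding genes, with the widest at the top. In most interferon-list genes (marked with a star) replicate 1 lies to the right, and in most others to the left; Trim30b spans a 2.60-fold range and Trim14 has the narrowest range of the 31.

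Other TRIM genes were highest in another library. Trim47 stood at 1.43, 2.63 and 1.32 TPM in replicates 1, 2 and 3, highest in replicate 2, and Trim16, below 1 TPM, was highest there too at 0.55, 0.85 and 0.40 TPM. Trim47 overlaps Trim65 on the same strand over 5365 bases, so reads there are uncertain, and Trim65 itself was even. Trim28, Trim41 and Trim44 were highest in replicate 3 on both scales. At the other extreme, Trim14 stood at 180.5, 180.4 and 179.6 TPM on the coding scale in replicates 1, 2 and 3, Trim8 spanned 1.03-fold and Trim34a 1.06-fold.

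The size of these differences was set against counting noise with edgeR. Its likelihood-ratio test of library with dispersion 0, Benjamini-Hochberg adjusted over 12372 genes, called 30 of 41 TRIM genes tested, against 71.1% of all genes tested. All 13 expressed interferon-list genes and 10 of the 18 other expressed ones passed. Among them were Trim30a (adjusted p = 2.87e-273), Trim30b (3.34e-116), Trim30d (1.11e-96), Trim30c (1.49e-87), Trim21 (1.21e-62) and Trim25 (1.14e-50). Trim3, Trim13, Trim23, Trim32, Trim33, Trim36, Trim39 and Trim65 were the 8 expressed members that did not pass, and Trim32 was the flattest of them (adjusted p = 0.901). A pass says only that 3 libraries differed by more than counting gives, which the depth of Trim30a (24714, 25733 and 30951 counts) reveals at small ratios. The median coefficient of variation beyond counting, as edgeR estimates it, was 0.152 for TRIM genes tested and 0.160 for all genes tested. These estimates are drawn toward values shared over all genes, so the nearness of the medians is not a separate result.

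Transcript make-up was a separate readout. Among the 31 expressed TRIM genes the share of abundance in transcripts annotated as protein-coding was below 50% in 3, against 5.12% of protein-coding genes at that level. They were Trim30b (20.1% ± 5.40), Trim28 (40.1% ± 0.996) and Trim12a (49.8% ± 4.60; SD, n = 3). Trim12a sat at the threshold, with 54.95%, 48.3% and 46.1% in replicates 1, 2 and 3, and at 55.7% ± 2.30 (SD, n = 3) in the second quantification it was not below 50%, which left Trim30b and Trim28. The median gene of the 31 had 99.5%.

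In Trim30b a 3514-base transcript with a retained intron, Trim30b-202, made up 73.4%, 84.8% and 76.1% of the gene's abundance in replicates 1, 2 and 3. It was 69.6% in the second quantification. The coding transcript Trim30b-204 followed with 11.6%, 8.94% and 12.1%. The Trim30b level given above is thus mostly that of a transcript not annotated to make the protein.

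In Trim28 and Trim12a the noncoding share sat in short transcripts, which weigh more in abundance than in reads. Trim28-203, a retained-intron transcript of 565 bases, had 43.3% of abundance but 10.04% of the gene's counts, and the coding Trim28-201 had 40.1% of abundance and 82.9% of counts. The second quantification gave Trim28-203 27.3%. Trim12a-206, a processed transcript of 562 bases, had 47.3% of abundance and 18.6% of counts, and the coding Trim12a-203 had 43.1% and 63.2%.

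Some transcript shares changed between libraries or tables. The processed transcript Trim14-204 held 24.3%, 21.1% and 3.36% of Trim14 abundance in replicates 1, 2 and 3, while the gene's total on the coding scale stayed level. The coding transcript Trim47-202 held 0.58%, 17.1% and 55.8%. The processed transcript Trim26-209 held 28.1% in the first quantification and 5.22% in the second. Trim30d and Trim34a each split between a pair of coding transcripts, with 43.0% and 56.7% for Trim30d-201 and Trim30d-202, and 45.3% and 50.3% for Trim34a-201 and Trim34a-203.

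**Figure D4:**
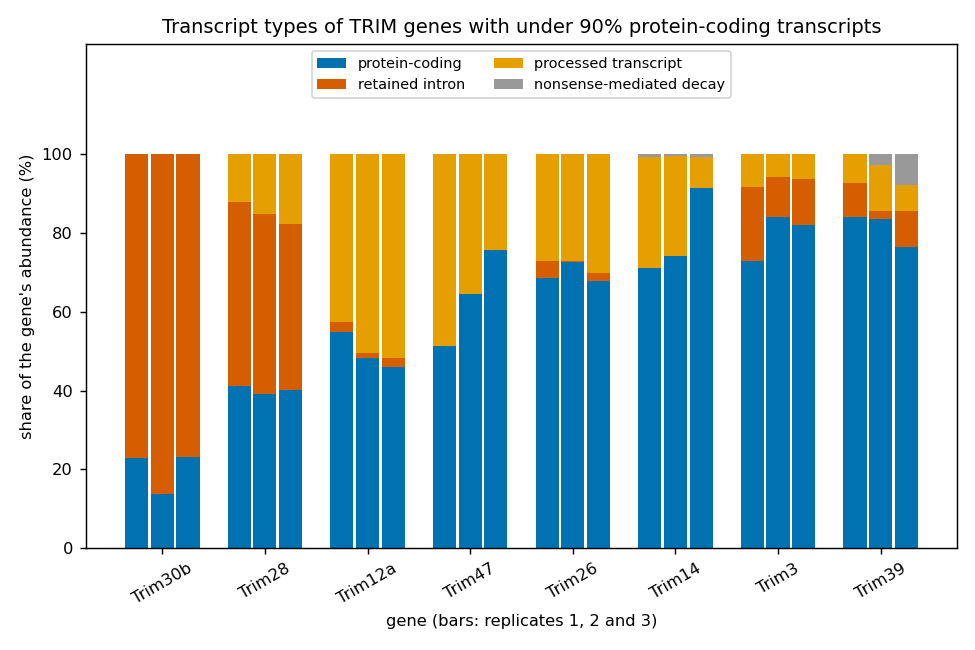
Share of each gene's abundance by annotated transcript type, in percent, for the 8 expressed TRIM genes with under 90% in protein-coding transcripts, with 1 bar per library in the order of replicates 1, 2 and 3. Trim30b is mostly retained intron, with 13.8% to 23.3% protein-coding, and Trim14 and Trim47 gain protein-coding share in replicate 3.

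At gene level the quantifications were close. On the coding scale the first over the second gave ratios between 0.816 and 1.21 in every library for the 31 expressed TRIM genes. A difference of 2-fold or more in the same direction in every library was seen in 1 of 40 TRIM genes tested, against 16.0% of all genes tested. It was Trim52, with 0 counts in the first quantification and 0.40, 0.04 and 0.22 TPM in the second. Overlap with other genes also limits the assignment of reads. Of the 31 expressed TRIM genes, 20 overlapped another annotated gene, 8 of them on the same strand. The share of all genes with such an overlap was not computed, so these counts do not set the family apart. Trim14 overlaps Nans on the opposite strand over 9852 bases, and its unique share of 31-base words was 63.6%. The strand setting of the counting is not given in the sources used here, so reads of such pairs may not be told apart.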

How the data were processed

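Total RNA sequencing of 3 cytosolic libraries of 1 group was used. Per the file headers, each has gene and transcript tables laid out as RSEM writes them, and another transcript table laid out as kallisto does (the second quantification). The deposited tables use mm10 and GENCODE M21. Program versions and strandedness are not stated in the sources used here. Gene tables hold expected counts, estimated by the authors and not whole, and TPM as deposited, with posterior mean and SD estimates as other values in the same deposited tables (a score here). The deposited transcript tables split each gene's abundance over its transcripts as a percent. The second tables hold the authors' estimated counts and TPM, summed here per gene.

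TPM was also divided by the protein-coding sum of each library. Detection was 1 TPM in every library. After rounding to whole numbers, expected counts were fitted with edgeR 4.0.16 in R 4.3.3 (TMM, filterByExpr, dispersion 0, adjusted p under 0.05), with DESeq2 1.42.0 as an alternative, and the test was checked on simulated data. Words of 31 bases came from GENCODE M21 transcripts, and promoters from RefSeq (GRCm38.p6). Python 3.11.15, numpy 2.4.6, pandas 2.3.3 and Biopython 1.88 did the rest.

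Values in every library are given for TRIM genes at a mean of 1 TPM or more. The rest are given by range and count, and by name where they belong to the interferon-inducible, chromosome 7 or muscle lists. Other genes are named from fixed context lists (the 2 highest and the lowest of each). Trim2 and Trim7 were named for their promoter motifs, and Trim16, Trim38, Trim52 and Trim66 after their values were seen. The genes and lists were chosen with earlier results of these data known. The lists rest on general knowledge of the family.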

Additional observations from a re-analysis of the deposited data

How the results depend on the processing

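No paired analysis was possible because the 3 libraries form 1 group. The median level of the 68 TRIM genes was 0.785 TPM as deposited, 2.68 TPM on the coding scale and 0.418 TPM in the second quantification, and these differ by construction in what TPM is scaled to. The same changes of scale took the median of the interferon-inducible list to 74.9 and 10.7 TPM and that of the chromosome 7 cluster to 72.8 and 10.5 TPM. With members at 0.1 TPM or more only, the cluster median was 26.6 TPM. A pseudocount of 0.1 in place of 1 put the interferon-inducible list 4.62 log2 units above all TRIM genes in place of 3.67, and the cluster 4.55 in place of 3.60. At 5 TPM in every library 17 TRIM genes passed in place of 31, and leaving out a library gave 31 to 32. The second quantification as deposited had 26 at 1 TPM or more in every library. Added after seeing the data, the second quantification on the coding scale had 39 at 1 TPM or more in every library, and so did the first on that scale. At 2-fold in place of 1.5-fold between libraries 1 gene passed in place of 6, and leaving out a library gave 1 to 6. For any gene, leaving out a library cannot raise the ratio of highest to lowest. On deposited TPM 3 genes in place of 1 differed between quantifications. For these changed settings of detection, fold and difference between quantifications, the share of all genes was not computed. The median coding share was 98.5% in the second quantification and 99.5% in the first. Against counting noise, edgeR with another normalization and DESeq2 each called 30 of 41, against 70.7% and 71% of all genes tested. Leaving out replicate 1, 2 or 3 gave 20, 22 and 23 of 41, against 52.3%, 53.4% and 51.6% of all genes tested. Genes at a few counts are limited by depth.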
